A study of Homo sapiens with 6 samples.

Results

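The aldehyde dehydrogenase (ALDH) genes were examined after knockdown of TAZ by siRNA in MDA-MB-231 cells. The set held 10 genes out of the 46427 in the deposited gene table. ALDH3A2 was taken because its mRNA rose with the knockdown in these same libraries, so its change is given as a description with no test. The other 9 genes, ALDH1A1, ALDH1A3, ALDH1B1, ALDH2, ALDH3A1, ALDH3B1, ALDH7A1, ALDH9A1 and ALDH18A1, were taken as members of the family, including the isoforms used as stem cell markers. All 10 were found in the table by gene symbol, and 9 passed the filter on low counts. The gene that did not pass was ALDH1A1.

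MDA-MB-231 is an established, metastatic, triple-negative breast cancer line with mesenchymal features. RNA was sequenced from 6 cell preparations, 3 treated with control-siRNA (genotype labelled WT) and 3 treated with siGENOME human WWTR1 siRNA delivered with DharmaFECT4 (TAZ-siRNA, genotype labelled as TAZ knockdown). WWTR1 encodes TAZ, a transcriptional coactivator of the Hippo pathway. All 6 preparations were grown in DMEM with glucose at 5.5 mM and 10% fetal bovine serum. The knockdown was transient, in 1 cell line, and the siRNA dose and the time from transfection to harvest were not stated for the sequenced cells.

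Most ALDH enzymes oxidise aldehydes to carboxylic acids with NAD or NADP as the electron acceptor. ALDH18A1 acts instead in the synthesis of proline from glutamate. The oxidising enzymes differ in their preferred aldehydes, which come from ethanol, retinol, membrane lipids, amino acids, choline or lipid peroxidation. The family is spread over the cytosol, the mitochondria and the endoplasmic reticulum. ALDH1A1 and ALDH1A3 convert retinaldehyde to retinoic acid, and ALDH activity measured with a fluorescent substrate is widely used to sort stem-like cells from breast tumours.

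Sequences next to the transcription start of 4 members are shown first, because these genes gave the 3 kinds of result described below: ALDH3A2 was higher in TAZ-siRNA-treated cells, ALDH1B1 and ALDH3B1 were lower, and ALDH1A1 was hardly detected. They are RefSeq start-site windows on GRCh38.p14, written 5′ to 3′ on the strand of the gene, each from the bases just before the start. Capitals mark matches, on either strand, to 3 short motifs: GGGCGG, which SP factors bind, CCAAT, which NF-Y binds, or CACGTG, an E-box, and no 2 matches overlapped in these stretches. The ALDH1B1 stretch is the 250 bases at chr9:38392452-38392701 (plus strand). The ALDH3B1 stretch is the 250 bases at chr11:68010077-68010326 (plus strand), before the start that gave 99.6 to 100% of the gene's TPM. The ALDH1A1 stretch is 247 bases at chr9:72953057-72953303 (minus strand), without the 3 bases next to the start that GENCODE 44 gives as exon. For ALDH3A2, 30 bases at chr17:19648700-19648729 (plus strand) are shown, which lie from 51 to 22 bases before the start that carried 96.1 to 97.9% of the gene's TPM. Most of that window (225 of 250 bases) is exon of other ALDH3A2 transcripts in GENCODE 44, so no more of it is printed.
ALDH3A2: ctgtCACGTGggCCGCCCaggCCAATaggg
ALDH1B1: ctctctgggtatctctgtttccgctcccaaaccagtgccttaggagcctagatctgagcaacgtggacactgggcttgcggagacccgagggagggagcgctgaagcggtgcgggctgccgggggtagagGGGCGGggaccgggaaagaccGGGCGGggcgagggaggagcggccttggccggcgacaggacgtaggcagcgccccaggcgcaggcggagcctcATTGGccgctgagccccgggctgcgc
ALDH3B1: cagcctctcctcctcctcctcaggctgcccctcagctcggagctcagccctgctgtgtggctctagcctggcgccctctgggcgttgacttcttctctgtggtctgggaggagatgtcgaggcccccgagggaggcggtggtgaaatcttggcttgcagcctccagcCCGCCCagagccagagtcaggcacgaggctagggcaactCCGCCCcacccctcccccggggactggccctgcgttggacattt
ALDH1A1: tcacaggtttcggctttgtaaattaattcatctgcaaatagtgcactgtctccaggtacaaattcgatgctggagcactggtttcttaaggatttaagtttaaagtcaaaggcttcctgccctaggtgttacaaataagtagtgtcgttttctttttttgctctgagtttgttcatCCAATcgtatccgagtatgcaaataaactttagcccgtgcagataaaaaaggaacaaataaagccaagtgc

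Within the whole 250-base window of ALDH3A2 there were 4 matches to GGGCGG, 1 to CCAAT and 1 to CACGTG, and GC content was 73.2%. ALDH1B1 (70.4% GC) had 2 matches to GGGCGG and 1 to CCAAT, and ALDH3B1 (66.8% GC) had 2 to GGGCGG. ALDH1A1 differed from these in base composition, with 38.4% GC, 1 match to CCAAT and none to GGGCGG. The median GC content of all 35116 RefSeq windows of this length was 58%. RefSeq windows were at hand for 8 of the 10 genes, and these 8 genes had 10 windows. GGGCGG stood in 6 of the 10 windows and in 42.6% of all windows, CCAAT in 5 of the 10 and in 32.0% of all, and CACGTG in 2 of the 10 and in 6.34% of all. CATTCC, the core of the motif bound by TEAD factors (the DNA-binding partners of TAZ), was in none of the 10 windows and in 11.9% of all. TGACNNNGC, the core of the antioxidant response element, was in none of the 10 and in 10.9% of all, and TGATGCAA, a CEBP-ATF response element, was in none of the 10 and in 0.772% of all. These matches describe letters in the windows and do not show where a factor was bound.

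The libraries held 48307548 to 71749634 counts, and levels are given in CPM, a count relative to the library's size. The floor of 3 counts was 0.0411 to 0.0618 CPM, which covers counting error only, while the 95% intervals below come from the edgeR fit and include the spread between preparations. WWTR1 was at 192.4, 189.7 and 190.0 CPM in the control libraries and at 17.3, 17.0 and 15.1 CPM after TAZ-siRNA, which is 8.65% of the control level. Over the 16966 genes tested with edgeR, 3749 passed an adjusted p of 0.05, which is 22.1% of genes, with 2012 (11.9%) higher and 1737 (10.2%) lower in TAZ-siRNA-treated cells. The CPM values of the 2 groups did not overlap for 6717 genes (39.6%). The 10 markers of a mesenchymal triple-negative line summed to 5713 to 5897 TPM (deposited values, scaled for transcript length) in control libraries and to 5735 to 5751 TPM after knockdown, and none was under 1 TPM throughout. Of these 10, edgeR called 5 (50%, against 22.1% of all genes), 1 higher and 4 lower. CAV1 (log2 fold change -0.60) and AXL (-0.35) were among those called lower. These are examples, and the marker called higher is not among them. The 12 luminal and epithelial markers summed to 1587 to 1656 TPM in control libraries and 1606 to 1664 TPM after knockdown, with KRT19 and CLDN4 called higher and GATA3 called lower by edgeR, and of these 12 ESR1, PGR and CDH1 were under 1 TPM in every library. Of 14 markers of fibroblasts, endothelium and blood cells, 9 were under 1 TPM in every library, and the 14 summed to 105 to 110.2 TPM in control libraries and 86.5 to 91.6 TPM after knockdown. Most of that sum was CD68 (96.8 ± 2.88 and 75.03 ± 3.31 TPM, SD, n = 3), which was called lower, while PDGFRB and COL1A1 were called higher and the median log2 fold change of the 6 tested was 0.35. The part of these markers in the ALDH values was not tested. In bulk RNA, a loss of cells of 1 kind and less RNA per cell cannot be told apart.

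ALDH mRNA levels spanned a wide range in control cells. ALDH18A1 was the most abundant of the 10 at 96.3 ± 1.34 TPM (SD, n = 3), followed by ALDH9A1 at 84.2 ± 2.69 TPM, ALDH3A2 at 57.0 ± 1.52 TPM and ALDH7A1 at 45.3 ± 1.96 TPM. ALDH1B1 (31.5 ± 0.597 TPM), ALDH3B1 (16.7 ± 0.662 TPM) and ALDH2 (12.3 ± 0.526 TPM) came next. The lowest were ALDH3A1 at 4.83 ± 0.228 TPM, ALDH1A3 at 2.65 ± 0.244 TPM and ALDH1A1 at 0.0138 ± 0.0240 TPM. No neighbours in this order overlapped in their control values. After knockdown ALDH3A2 moved from place 3 to place 2, at 92.4 ± 4.10 TPM beside ALDH18A1 at 92.7 ± 1.78 TPM, and the TAZ-siRNA values of these 2 genes overlapped. By group means, the order of the other genes among themselves was kept. After knockdown the values of ALDH3B1 (11.9 ± 2.17 TPM) and ALDH2 (11.7 ± 0.322 TPM) also overlapped.

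**Figure D1:**
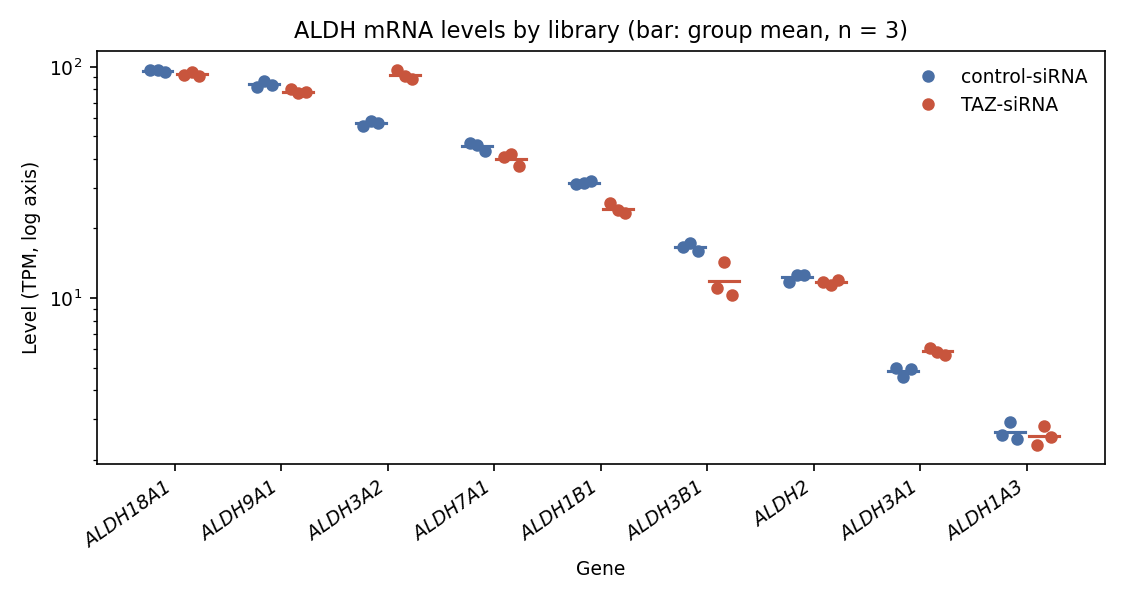
Level of 9 ALDH genes in each library on a logarithmic TPM axis, with control-siRNA in blue, TAZ-siRNA in red and a bar at each group mean (n = 3). ALDH3A2 moved up to the level of ALDH18A1, from 57.0 to 92.4 TPM, while ALDH1B1 and ALDH3B1 lay lower after knockdown.

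ALDH3A2 (chr17:19648150-19677596) encodes fatty aldehyde dehydrogenase, a membrane enzyme of the endoplasmic reticulum that oxidises long-chain aldehydes from sphingolipids, fatty alcohols and ether lipids, and its loss causes Sjögren-Larsson syndrome. The gene had 6225, 6143 and 4910 counts in control libraries and 11288, 7236 and 8611 after TAZ-siRNA. On the CPM scale the control libraries were at 93.4, 98.7 and 101 and the TAZ-siRNA libraries at 155, 147 and 154. Every TAZ-siRNA library was above every control library, as the choice of this gene implies. The means were 97.7 ± 3.96 and 152 ± 4.50 CPM (SD, n = 3), a difference of 0.64 on the log2 scale (SE 0.05) or 1.55-fold. Counted down from the largest rise in log2 fold change, it was number 757 of the 16966 genes tested. Among the 13591 with a mean of at least 1 CPM it was number 319. Larger falls were not counted in these ranks.

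The ALDH3A2 mRNA was read almost wholly from 1 start site and as 2 main transcripts. NM_000382, the major form, was at 44.3, 43.3 and 40.3 TPM in control libraries and at 79.6, 79.7 and 75.2 TPM after knockdown, with no overlap. As this form made up most of the gene's TPM, its rise follows largely from the choice of the gene. NM_001031806, which is 125 bases longer and encodes the variant directed to peroxisomes, was at 8.03, 11.9 and 13.0 TPM in control libraries and at 13.5, 8.53 and 10.3 TPM after knockdown, and here the groups overlapped. In these estimates the higher level of the gene lay mostly in the major transcript. Its share of the gene's TPM was 74.9 ± 4.89% in control cells and 84.7 ± 2.63% after knockdown, and that of the longer form was 19.2 ± 4.22% and 11.6 ± 2.31%. Single transcripts were estimated with much less precision than genes, so these values were not tested. The upstream start at 19648150 gave 0.568 to 2.25% of the gene's TPM and the start at 19651603 gave 0.844 to 2.75%. The transcript from this last start, XM_024450651, was low but also higher after knockdown. It was at 0.467, 1.51 and 0.642 TPM in control libraries and 2.67, 2.15 and 2.28 TPM after TAZ-siRNA, with no overlap.

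**Figure D2:**
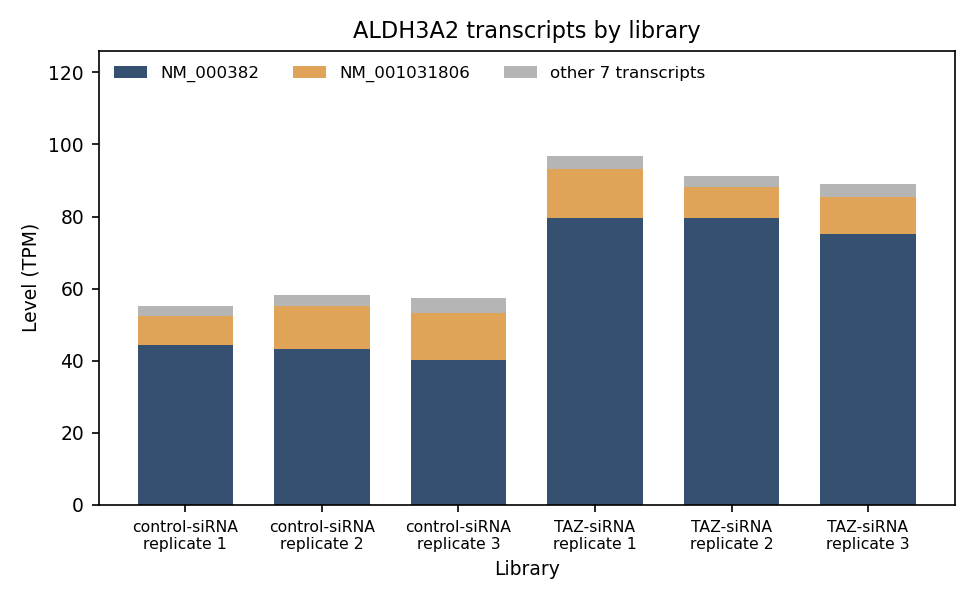
Stacked bars of the TPM of ALDH3A2 transcripts in each of the 6 libraries. NM_000382 stands at 40.3 to 44.3 TPM in control libraries and at 75.2 to 79.7 TPM in TAZ-siRNA libraries, and NM_001031806 at 8.03 to 13.5 TPM in both groups together.

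Among the 9 genes not chosen for their change, 8 were tested. Of these, 5 were called at an adjusted p under 0.05 (62.5%, against 22.1% of all genes tested), all 5 lower in TAZ-siRNA-treated cells (against 10.2% of all genes) and none higher. They were ALDH3B1, ALDH1B1, ALDH7A1, ALDH9A1 and ALDH18A1, and the median log2 fold change of the 8 was -0.16, against -0.01 over all genes tested. The groups did not overlap in CPM for 6 of the 8, against 39.6% of all genes. With 8 genes, these shares describe the family and were not tested as a list. The members were chosen with earlier results of these data known. In control cells the 5 called were at 16.7 to 96.3 TPM and the 3 not called at 2.65 to 12.3 TPM. The shares over all genes were not matched for level. Leaving out any of the 3 control libraries or TAZ-siRNA replicate 1 or 2 left 3 of the 5 calls, in fits that called 11.2 to 15.3% of all genes. Leaving out TAZ-siRNA replicate 3 gave 6, in a fit that called 33.7% of all genes.

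Beside ALDH3A2, the set held ALDH3B1 and ALDH3A1 of the same ALDH3 family. ALDH3B1 (chr11:68008547-68029276), a membrane-attached enzyme active on medium- and long-chain aldehydes from lipid peroxidation, was at 21.1, 22.0 and 21.1 CPM in control libraries and at 13.2, 17.5 and 13.5 CPM after TAZ-siRNA. All 3 TAZ-siRNA libraries were below the controls, and replicate 2 was the highest of them. ALDH3B1 was at 68.6% of the control level (log2 fold change -0.54, SE 0.10, edgeR adjusted p = 0.0040). ALDH3A1 (chr17:19737984-19748390), a cytosolic enzyme best known as a crystallin of the cornea, lies 60.4 kb from ALDH3A2 on the same chromosome. It was at 3.67, 3.60 and 4.18 CPM in control libraries and 4.40, 4.36 and 4.48 CPM after knockdown. The groups did not overlap, but the gene was not called (log2 fold change 0.21, 95% interval -0.03 to 0.46, edgeR adjusted p = 0.20).

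The mitochondrial acetaldehyde enzymes were both below the control mean, and 1 of them was called. ALDH1B1 (chr9:38392702-38398665) oxidises acetaldehyde and retinaldehyde and has been used as a marker of progenitor cells in the gut. It was at 42.7, 43.3 and 46.1 CPM in control libraries and 33.6, 31.4 and 32.8 CPM after knockdown. The groups were well apart, at 74.2% of the control level (log2 fold change -0.43, SE 0.06, edgeR adjusted p = 6.9e-04). ALDH2 (chr12:111766933-111817532), the main enzyme of acetaldehyde clearance, was at 50.6, 54.5 and 56.6 CPM in control libraries and 48.2, 46.6 and 53.0 CPM after knockdown. Here the groups overlapped (log2 fold change -0.13, 95% interval -0.27 to 0.01, edgeR adjusted p = 0.18). Without TAZ-siRNA replicate 3, the highest of its group, ALDH2 passed the threshold (log2 fold change -0.18, edgeR adjusted p = 0.022).

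The enzymes of amino acid, carnitine and choline metabolism, which were among the 4 most abundant members in control cells, fell by smaller amounts. ALDH7A1 (chr5:126541841-126595219), which oxidises the aldehyde formed in lysine breakdown and betaine aldehyde, was at 102, 99.1 and 97.3 CPM in control libraries and 83.1, 86.7 and 83.0 CPM after knockdown. The groups did not overlap, and the mean was 84.8% of control (log2 fold change -0.24, SE 0.05, edgeR adjusted p = 0.0049). Only the limma fit on TPM, among the alternatives run, ended this call (log2 fold change -0.18, limma adjusted p = 0.094).

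ALDH9A1 (chr1:165662212-165698663) oxidises the trimethylated aldehyde on the way to carnitine. It was at 93.3, 99.6 and 99.2 CPM in control libraries and 86.2, 83.5 and 90.7 CPM after knockdown, again without overlap (log2 fold change -0.17, SE 0.05, edgeR adjusted p = 0.041). ALDH18A1 (chr10:95605938-95656901), the first enzyme of proline synthesis from glutamate, was at 152, 155 and 158 CPM in control libraries and 136, 138 and 143 CPM after knockdown. These groups did not overlap either (log2 fold change -0.16, SE 0.04, edgeR adjusted p = 0.031). Both calls were lost when any control library or TAZ-siRNA replicate 1 or 2 was left out, with edgeR adjusted p values of 0.064 to 0.167 for ALDH9A1 and 0.071 to 0.122 for ALDH18A1, and held without TAZ-siRNA replicate 3 (0.0047 and 0.0036). On log2(TPM + 1), limma gave ALDH18A1 a log2 fold change of -0.05 (adjusted p = 0.43) and ALDH9A1 -0.11 (adjusted p = 0.16).

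**Figure D3:**
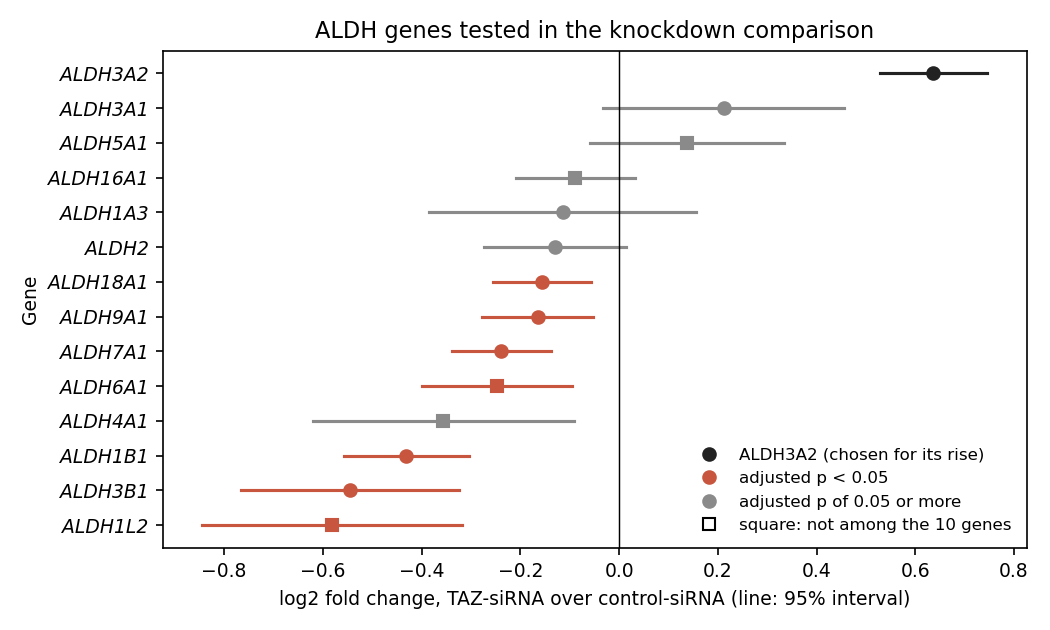
Log2 fold change of TAZ-siRNA over control-siRNA with its 95% interval from edgeR for the 14 ALDH genes tested, sorted by size; circles are the 10 genes described here, squares the other ALDH genes, red those with an adjusted p under 0.05, and black is ALDH3A2, chosen for its rise. All 7 red genes lie left of 0, from -0.16 to -0.58.

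The retinaldehyde dehydrogenases used as stem cell markers were at the bottom of the range. ALDH1A1 (chr9:72900671-72953053) had 0, 0 and 2 counts in control libraries and 2, 0 and 0 after knockdown. Every library was under the floor of 3 counts, so no fold change is given, and a change was not detectable at this depth. ALDH1A3 (chr15:100879831-100916626), the isoform held to account for much of the ALDH activity of breast tumour cells, had 270, 287 and 196 counts in control libraries and 253, 209 and 227 after knockdown. Its CPM values of 4.05, 4.61 and 4.04 in control libraries and 3.47, 4.24 and 4.06 after knockdown overlapped (log2 fold change -0.11, 95% interval -0.38 to 0.16, edgeR adjusted p = 0.55). A long noncoding RNA gene, LOC101927751, overlaps ALDH1A3 and had 15 to 54 counts, and the methods do not say if reads were counted by strand. The interval leaves room for a change of either sign in ALDH1A3.

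The other 9 ALDH genes of the human genome were read from the same fit. Of the 5 tested, 2 were called, both lower, against 22.1% of all genes called and 10.2% called lower. ALDH1L2, a mitochondrial enzyme of folate metabolism, was at 7.29, 6.59 and 7.64 CPM in control libraries and 4.72, 4.16 and 5.48 CPM after knockdown. The groups did not overlap (log2 fold change -0.58, SE 0.12, edgeR adjusted p = 0.0067). ALDH6A1, which acts in valine breakdown, was at 26.5, 27.6 and 25.3 CPM in control libraries and 22.9, 23.4 and 20.5 CPM after knockdown (log2 fold change -0.25, edgeR adjusted p = 0.027), and leaving out control-siRNA replicate 1 or 2 or TAZ-siRNA replicate 1 gave edgeR adjusted p values of 0.088, 0.124 and 0.068. Without TAZ-siRNA replicate 3, 4 of the 5 were called, 3 lower and 1 higher, in a fit that called 33.7% of all genes.

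ALDH4A1, which oxidises the product of proline breakdown, was not called at a log2 fold change of -0.36 (edgeR adjusted p = 0.056), nor were ALDH5A1, of GABA breakdown, at 0.14 (edgeR adjusted p = 0.30) and ALDH16A1 at -0.09 (edgeR adjusted p = 0.27). ALDH1A2, ALDH1L1 and ALDH8A1 had at most 8, 7 and 26 counts in any library and ALDH3B2 had 0, and these 4 were not tested. Grouped by compartment, after their values were seen, the 7 mitochondrial enzymes were ALDH1B1, ALDH1L2, ALDH2, ALDH4A1, ALDH5A1, ALDH6A1 and ALDH18A1. All 7 were tested, with 4 called lower (against 10.2% of all genes) and 0 higher. Calls of lower level were not confined to this group. Of 3 cytosolic enzymes tested, 1 was called lower and 0 higher. The 1 membrane-attached enzyme tested and the 1 found in several compartments were also called lower.

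Summed over all 19 ALDH genes, the TPM level was 392, 401 and 388 in control libraries and 408, 406 and 386 after knockdown. These sums overlapped, at 394 ± 6.48 and 400.2 ± 12.2 TPM (SD, n = 3). Without ALDH3A2 the sum was 337, 343 and 331 TPM in control libraries and 311, 315 and 297 TPM after knockdown, and the groups did not overlap. ALDH3A2 made up 14.5 ± 0.331% of the ALDH transcripts in control cells and 23.1 ± 0.627% after knockdown, a share that includes the rise it was chosen for.

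The transcript estimates of other members were uneven between libraries of the same group. For ALDH7A1, NM_001182 was at 2.18, 20.01 and 2.22 TPM in control libraries while the gene stayed at 97.3 to 102 CPM. For ALDH18A1, with 14 transcripts, the predicted XM_024448094 was at 27.5, 35.2 and 31.4 TPM in control libraries and 23.2, 3.81 and 0.961 TPM after knockdown. The predicted XM_024448097 went the other way. It was at 13.0, 5.92 and 8.84 TPM in control libraries and 7.66, 18.7 and 28.9 TPM after knockdown. For ALDH9A1, NM_000696 made up 46.6 to 71.4% of the gene's TPM across the 6 libraries, and NM_000690 made up 42.1 to 76.7% of that of ALDH2. The main ALDH3B1 transcript, NM_000694, was steadier, at 67.7 to 84.5%. TPM of a gene depends on how its reads were divided between transcripts of different length, and the part of this in the TPM values of ALDH18A1 and ALDH9A1 was not tested.

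The genes whose CPM followed ALDH3A2 most closely over the 6 libraries, among 13591 genes, were TFPI, WDR47, FAM102A, IFI44L and OAS2, with Pearson r of log2 CPM between 0.995 and 0.999. Their log2 fold changes were 0.22, 0.32, 0.39, 0.98 and 0.85. With 6 libraries in 2 groups, r mostly reflects the difference between the groups, so it is given as a description only.

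Of the genes around the retinaldehyde dehydrogenases, most of those called were higher after knockdown. Of 26 genes of retinoid metabolism and retinoic acid receptors, 20 were tested and 8 were called, against 22.1% of all genes, 7 higher and 1 lower, and the list's median log2 fold change was 0.19. RARB, a retinoic acid receptor and itself a retinoic acid target, was at 0.390, 0.514 and 0.432 CPM in control libraries and 0.987, 0.771 and 0.752 CPM after knockdown (log2 fold change 0.91, SE 0.25, edgeR adjusted p = 0.024). STRA6, the membrane receptor for retinol bound to its carrier, was at 6.79, 8.18 and 8.30 CPM in control libraries and 11.3, 11.1 and 12.2 CPM after knockdown (log2 fold change 0.57, SE 0.10, edgeR adjusted p = 0.0026). The single gene that fell was FABP5, a carrier of fatty acids and retinoic acid, from 47.9, 48.3 and 49.7 CPM to 35.2, 35.3 and 40.9 CPM (log2 fold change -0.39, SE 0.07, edgeR adjusted p = 0.0027). None of these 3 genes overlapped between groups, while RARB, with 21 to 72 counts, kept its call in 3 of the 6 fits that left out 1 library, and without control-siRNA replicate 3 the list had 5 calls. The other 5 that rose were RDH10, RDH11 and SDR16C5, which form retinaldehyde or act on it, RXRA, a partner receptor, and CYP26B1, which degrades retinoic acid. When 1 library was left out, RDH11 was called in 3 of 6 fits and RXRA in 4, and the other 3 in all 6.

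Genes of the lipid pathways around ALDH3A2 were called about as often as genes in general. Of 26 genes of fatty aldehyde formation and sphingolipid breakdown, 21 were tested and 5 were called (23.8%), 4 higher and 1 lower, and the list's median log2 fold change was 0.06. TMEM189, the plasmalogen desaturase, was at 38.1, 40.1 and 37.5 CPM in control libraries and 49.4, 50.4 and 50.6 CPM after knockdown (log2 fold change 0.38, SE 0.05, edgeR adjusted p = 8.9e-04), and PLPP1, a lipid phosphate phosphatase, had a log2 fold change of 0.36 (edgeR adjusted p = 0.0086). HACL1, the peroxisomal lyase that releases fatty aldehyde from branched and hydroxy fatty acids, fell from 32.8, 30.9 and 32.7 CPM to 22.9, 21.8 and 24.7 CPM (log2 fold change -0.48, SE 0.06, edgeR adjusted p = 7.3e-04). SGPL1, the lyase that makes hexadecenal from sphingosine phosphate, was at 95.6 ± 0.292 CPM in control libraries and 97.3 ± 2.12 CPM after knockdown (SD, n = 3), where the groups overlapped, and was not called (log2 fold change 0.03, 95% interval -0.07 to 0.12, edgeR adjusted p = 0.71).

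Other enzymes of aldehydes and alcohols were called about as often as genes in general. Of 24 listed, 17 were tested and 4 were called (23.5%, against 22.1% of all genes), all lower (against 10.2% of all genes), and the list's median log2 fold change was -0.14. Of the 17, 6 had a log2 fold change above 0. AKR1C3 was higher in every TAZ-siRNA library than in any control library. It was not called (log2 fold change 0.58, edgeR adjusted p = 0.051). AOX1, aldehyde oxidase, was at 6.43, 7.22 and 6.53 CPM in control libraries and 3.44, 3.47 and 3.35 CPM after knockdown, or 50.8% of control (log2 fold change -0.98, SE 0.10, edgeR adjusted p = 2.1e-04). SORD, which oxidises sorbitol to fructose, was at 77.5% of control (log2 fold change -0.37, SE 0.05, edgeR adjusted p = 4.8e-04). AKR1A1 and AKR7A2, reductases of aldehydes, were also lower, and AKR7A2 was called in 2 of the 6 fits that left out 1 library. DESeq2 called 1 gene of the list higher and 5 lower, limma on log2(TPM + 1) 1 higher and 3 lower, and edgeR without TAZ-siRNA replicate 3 gave 8 calls, 1 higher and 7 lower.

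The pathways served by ALDH18A1, ALDH7A1 and ALDH9A1 were mixed. Of 25 genes of proline, lysine and choline metabolism, 16 were tested and 5 were called (31.2%, against 22.1% of all genes), 2 higher and 3 lower, and the list's median log2 fold change was -0.06. SARDH, which oxidises sarcosine in choline breakdown, was at 19.9, 20.1 and 20.5 CPM in control libraries and 13.7, 14.3 and 12.7 CPM after knockdown (log2 fold change -0.57, SE 0.07, edgeR adjusted p = 4.3e-04). ARG2, the mitochondrial arginase, had a log2 fold change of -0.50 (edgeR adjusted p = 0.014), and PYCR3, a reductase of pyrroline-5-carboxylate, was also lower. MAOB, an amine oxidase that generates aldehydes, was higher by 0.58 (edgeR adjusted p = 0.049) and SLC22A5, the carnitine transporter, by 0.36 (edgeR adjusted p = 0.0097) on the log2 scale. Of 6 fits that left out 1 library, MAOB and PYCR3 were called in 1, ARG2 in 2 and SLC22A5 in 5. The count of calls in this list fell to 1 without control-siRNA replicate 2, to 2 without control-siRNA replicate 3 or TAZ-siRNA replicate 1 and to 3 without control-siRNA replicate 1 or TAZ-siRNA replicate 2, and was 8 without TAZ-siRNA replicate 3.

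Markers of breast cancer stem cells other than ALDH genes moved in both directions. Of 22 listed, 14 were tested and 7 were called, against 22.1% of all genes, 4 higher and 3 lower, and the list's median log2 fold change was 0.18. ITGA6, the alpha 6 integrin, was at 239, 238 and 218 CPM in control libraries and 321, 324 and 274 CPM after knockdown (log2 fold change 0.40, SE 0.07, edgeR adjusted p = 0.0034), and KLF4, a transcription factor of pluripotency, was higher by 0.39 on the log2 scale (edgeR adjusted p = 0.0012). DCLK1, a kinase marking tuft cells, was lower by a log2 fold change of -0.48 (edgeR adjusted p = 0.014) and PROCR, the protein C receptor, by -0.33 (edgeR adjusted p = 0.0062). CD44, used with low CD24 to define stem-like breast cancer cells, was at 523 to 526 CPM in control libraries and 499 to 522 CPM after knockdown and was not called (log2 fold change -0.03, 95% interval -0.15 to 0.08, edgeR adjusted p = 0.69). CD24 was also not called (log2 fold change 0.21, edgeR adjusted p = 0.056). PROM1, THY1, SOX2, NANOG and POU5F1 were under 1 TPM in every library. ABCG2 was called higher (log2 fold change 0.25, edgeR adjusted p = 0.032). Of the 6 fits that left out 1 library, ABCG2 was called in 1 and DCLK1 in 4, and the list had 4 calls without control-siRNA replicate 1.

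**Figure D4:**
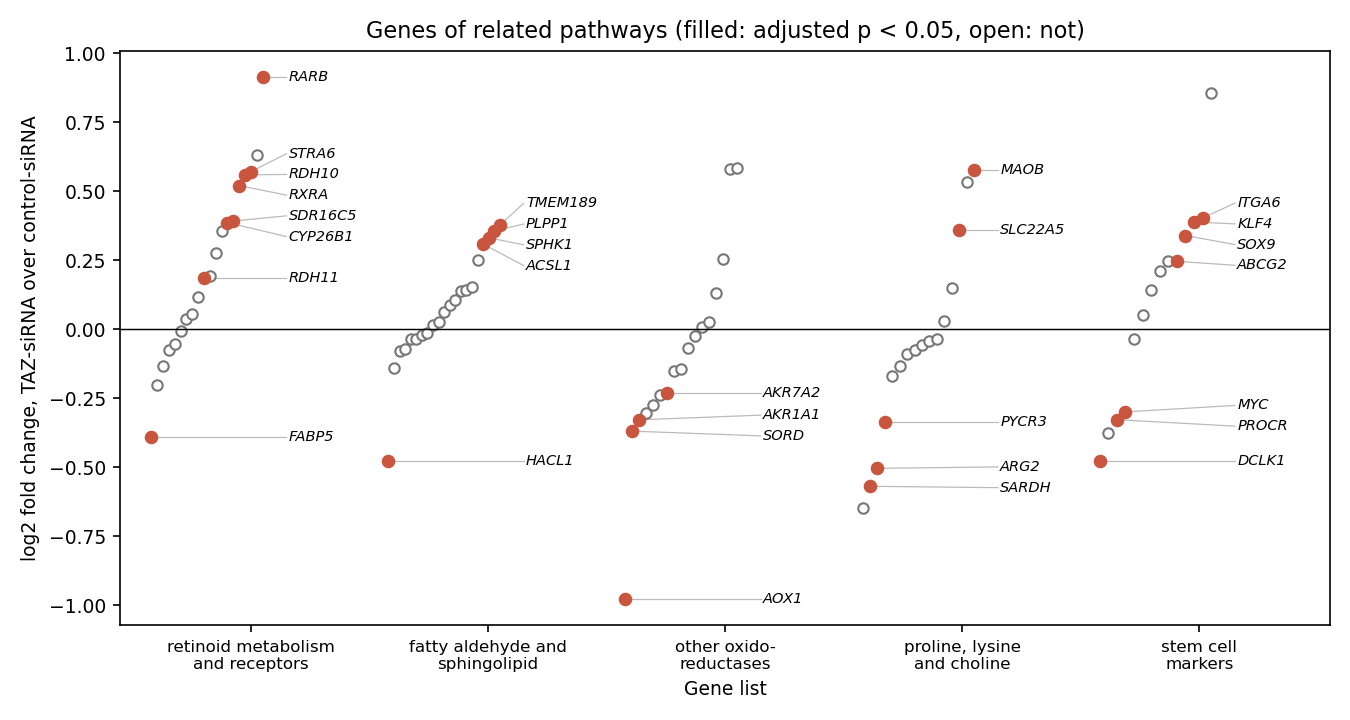
Log2 fold change of TAZ-siRNA over control-siRNA for each tested gene of 5 lists, sorted within a list; filled red points have an edgeR adjusted p under 0.05 and are named, open points do not. Named genes of the retinoid list lie above 0 except FABP5 (-0.39), all 4 named oxidoreductases lie below 0, and the stem cell markers lie on both sides.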

How the data were processed

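RNA of 3 control-siRNA and 3 TAZ-siRNA preparations was analysed. The authors mapped trimmed reads of stranded libraries to GRCh38 with HISAT2 and assembled transcripts with StringTie (versions not given in the sources used here), while the submitters' processing notes name Bowtie 0.12.2, GRCh38 and mm8. The estimated counts deposited by the authors are whole numbers and were not rounded. The authors scaled the deposited FPKM and TPM values to library size and the length of transcripts. Libraries were numbered 1 to 3 after their descriptions, and their titles use other numbers. Replicates were cell preparations, so p-values measure the spread between these.

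Genes were compared with edgeR 4.0.16 (R 4.3.3) by TMM, filterByExpr (minimum count 10) and robust quasi-likelihood tests, and p-values were adjusted by Benjamini-Hochberg over the 16966 genes tested. The biological coefficient of variation was 8.04%. Levels are CPM or deposited TPM. Alternatives were DESeq2 1.42.0 (size factors, Wald test), upper-quartile factors, 2 other filters, the replicate number as a block, limma 3.58.1 on log2(FPKM + 1), log2(FPKM + 0.1) and log2(TPM + 1), an adjusted p of 0.01 and leaving out each library. The deviations of same-numbered libraries had r of 0.068, 0.050 and 0.284. These do not show whether the numbers are pairs, so the main fit did not take them as pairs. A batch shared by same-numbered libraries was not tested. Replicates differed by more than counting noise (chi-square per degree of freedom 6.83 to 42.1). The scripts were tested on simulated data.

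Members and lists were chosen with earlier results of these data known. The text names all ALDH genes, the targeted gene and the 5 genes most correlated with ALDH3A2 (log2 of CPM + 0.5). It also names the 2 largest rises and 2 largest falls past the threshold in each pathway list and the stem cell list. Of the mesenchymal markers called, only CAV1 and AXL are named. Of the genes that overlap a member, only the one at ALDH1A3 is named. Of the transcripts with at least 10% of a member's TPM, only some are named, as examples. Further list genes (SGPL1, CD44, CD24, AKR1C3, ABCG2, some of the remaining called genes and undetected markers) were named after their values were seen. A gene of 1 list is not reported here and was left out of its counts. Start-site windows came from RefSeq (GRCh38.p14), with exons from GENCODE 44.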

Additional observations from a re-analysis of the deposited data

How the results depend on the processing

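The log2 fold change of ALDH3A2 lay between 0.61 and 0.69 under all 15 alternatives. ALDH1B1, ALDH3B1 and ALDH1L2 were called lower under all 16, and no log2 fold change of the ALDH genes reversed its sign. Of the 5 calls among the members, limma left 3 on log2(FPKM + 1), 3 on log2(FPKM + 0.1) and 2 on log2(TPM + 1), an adjusted p under 0.01 left 3, and leaving out 1 library gave 3 to 6. The 2 calls among the other ALDH genes became 1 in each of these limma fits and at 0.01, and 1 to 4 when 1 library was left out. An adjusted p under 0.01 left 5 of the 8 retinoid calls and 2 of the 5 in proline, lysine and choline metabolism. Leaving out 1 library gave 5 to 11 calls for the retinoid list, 3 to 8 for the 4 of the oxidoreductases, 1 to 8 for the 5 of proline, lysine and choline metabolism and 4 to 10 for the 7 stem cell markers, and the 5 fatty aldehyde calls ranged from 4 to 7 over all alternatives. Over all genes, 3749 calls became 1937 when control-siRNA replicate 2 was left out and 5928 when TAZ-siRNA replicate 3 was, and 62.9% of the 2543 calls on log2(TPM + 1) were higher, against 53.7%. The causes were not tested.

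With the replicate number as a block, which the deviations do not show to be a pairing, 5122 genes were called, the members again gave 5 calls, the oxidoreductase list gave 9 in place of 4, and ALDH4A1 passed (edgeR adjusted p = 0.049). ALDH1A1, ALDH1A2, ALDH1L1, ALDH3B2 and ALDH8A1 were too low to test at this depth, and the intervals for ALDH1A3, ALDH2 and ALDH3A1 include 0.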
